A study of Rattus norvegicus with 2 samples.

Results

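The miR-15 family, which takes in miR-16, miR-195 and miR-497, and the related pair of miR-103 and miR-107 were compared between the hippocampus of rats after status epilepticus (SE) and that of control rats. The members were all listed rat miRNAs named miR-15, miR-16, miR-195, miR-497, miR-103 or miR-107, of any letter, copy or arm. They were chosen by name and not by their counts, though with earlier results of these data known. These were 6 of the 390 miRNAs listed, namely miR-15b-5p, miR-16-5p, miR-195-5p, miR-497-5p, miR-103-3p and miR-107-3p. In the experimental group, male Wistar rats aged 5 months received electrical stimulation of the lateral nucleus in the right amygdala for 20 min, and for longer where SE had not set in. The control group, of the same sex, strain and age, carried implanted electrodes like the experimental group but received no current. The study used 6 rats per group and took RNA from the left hippocampus, on the side opposite to the stimulation, 24 hours after SE. RNA was pooled within each group into 1 small RNA library, called the SE library and the control library, and the number of rats per pool is not given in the sources used here. No comparison between the libraries therefore has a replicate check.

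Animal miRNAs recognise messenger RNAs mainly through the seed, bases 2 to 8 from the 5′ end. Members of the miR-15 family share 1 seed and are known for repressing cyclins and other cell cycle genes and the anti-apoptotic gene Bcl2. The seed of miR-103 and miR-107 lies 1 base further along the same motif. These 2 miRNAs are known for repressing Dicer and for roles in lipid and insulin metabolism, and both are abundant in brain.

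The mature sequences are shown because the shared seed is what ties the families together, and because the bases after it decide how well reads of 2 members can be told apart. All 6 members were found in the RefSeq sequences of the GRCr8 build. Bases 2 to 8 are in capitals.
miR-15b-5p: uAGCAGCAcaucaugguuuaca
miR-16-5p: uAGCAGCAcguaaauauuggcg
miR-195-5p: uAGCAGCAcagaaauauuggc
miR-497-5p: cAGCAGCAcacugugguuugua
miR-103-3p: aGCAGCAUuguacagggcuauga
miR-107-3p: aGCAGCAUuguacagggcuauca

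The 4 members of the miR-15 family had the seed AGCAGCA, and miR-103-3p and miR-107-3p had GCAGCAU. All 6 hold the letters AGCAGC, from base 2 in the former and from base 1 in the latter. Of the 693 mature rat sequences in the reference, 8 (1.15%) have these letters starting at base 1, 2 or 3, and the others are miR-503-5p and miR-322-5p. MiR-103-3p and miR-107-3p were the closest pair, with 22 of 23 bases the same. Their difference is G22C, with the base of miR-103-3p first and positions counted from 1 at the 5′ end, so that their first 21 bases are the same. A read that ends before base 22 thus matches both, and how the authors assigned such reads is not given in the sources used here. MiR-16-5p and miR-195-5p differ at 2 of 21 bases, G10A and U11G, with the base of miR-16-5p first. Each other pair of the miR-15 family differs at 6 or more bases.

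The precursors of miR-103 and miR-107 lie within genes of pantothenate kinases, which carry out the first step of coenzyme A synthesis. They are printed as RefSeq gives them for GRCr8, because 2 different hairpins carry the same mature miR-103-3p. Capitals mark the mature sequence.
Mir103a1, chr10:20748474-20748559, plus strand: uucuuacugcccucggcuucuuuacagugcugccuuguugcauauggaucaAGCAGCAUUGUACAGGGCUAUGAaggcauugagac
Mir103a2, chr3:138963227-138963312, plus strand: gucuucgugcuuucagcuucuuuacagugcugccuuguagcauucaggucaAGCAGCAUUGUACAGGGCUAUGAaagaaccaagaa
Mir107, chr1:241750418-241750504, minus strand: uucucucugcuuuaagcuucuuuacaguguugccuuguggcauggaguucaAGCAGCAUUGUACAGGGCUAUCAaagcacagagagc

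In the GRCr8 annotation, Mir103a1 lies inside the span of Pank3, Mir103a2 inside that of Pank2 and Mir107 inside that of Pank1, each on the strand of its host. Reads of miR-103-3p from Mir103a1 and Mir103a2 cannot be told apart. Mir15b and Mir16 lie 51 bases apart on chromosome 2, inside the span of Smc4, which encodes a subunit of condensin. Mir497 and Mir195 lie 255 bases apart on chromosome 10, outside any other annotated gene. No opposite arm of these precursors was analysed here.

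Each level is a CPM, the reads counted per 1000000 clean reads of the library. The number of clean reads was taken from the publication. All reads counted summed to 5678090 in the SE library and 6703056 in the control library. A single count was worth 0.138 and 0.114 CPM. Differences are given as log2 fold changes of the SE library over the control library, and each confidence interval (CI) is a 95% exact Clopper-Pearson interval from both counts. The CI of a ratio between 2 miRNAs is a conditional exact interval. All intervals cover counting error only, and so take no account of variation between rats, of PCR duplicates or of the library preparation. Fisher's exact test was two-sided and compared a count with the remaining clean reads, that is, it compared these libraries and not the conditions. The neuron-enriched miR-124-3p was abundant in both libraries, at 6957 CPM in the SE library and 3262 CPM in the control library, as was miR-128-3p, at 29610 and 40551 CPM.

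The families spanned a wide range of read numbers. MiR-103-3p held the 9th place among the 328 known miRNAs in both libraries, and miR-107-3p the 11th in the SE library and the 10th in the control library. MiR-16-5p, the most abundant of the miR-15 family, was 75th in the SE library and 92nd in the control library. MiR-107-3p had 49.4 times as many reads as miR-16-5p in the SE library (95% CI 46.3 to 52.7) and 84.0 times as many in the control library (78.2 to 90.4). The order of reads was miR-103-3p, miR-107-3p, miR-16-5p, miR-497-5p, miR-195-5p and miR-15b-5p in the control library, where each differed from the next beyond counting error. After SE the order was the same except that miR-195-5p and miR-497-5p could not be told apart, with 275 and 269 counts, a ratio of 1.02 (0.861 to 1.21). Adapter ligation favours some miRNAs over others, so these are orders of reads and not of molecules.

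**Figure D1:**
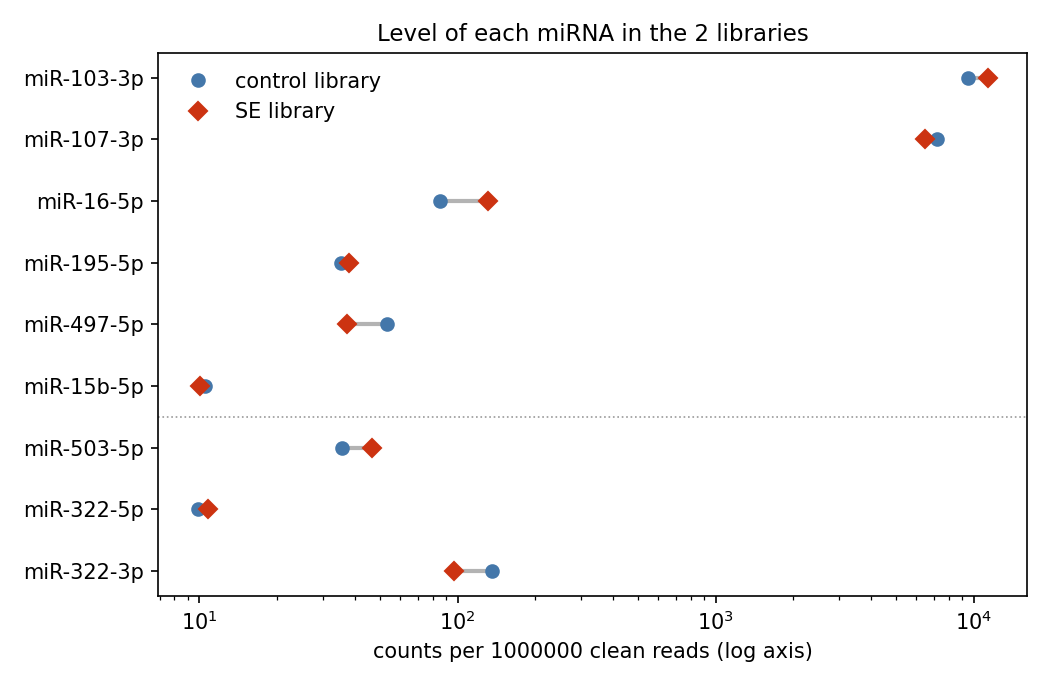
Level of each member (above the dotted line) and of 3 other miRNAs, miR-503-5p, miR-322-5p and the opposite arm miR-322-3p (below it), in counts per 1000000 clean reads on a log axis, in the control library (circles) and the SE library (diamonds). MiR-103-3p and miR-107-3p lie at the right, the other members between 10.1 and 131.2, and each pair of symbols lies close together on this scale.

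MiR-16-5p and miR-103-3p were higher in the SE library, miR-497-5p and miR-107-3p were lower, and miR-15b-5p and miR-195-5p did not change detectably. Some members with the same seed thus moved in opposite directions, each by a log2 fold change under 1 in size. Each member had at least 30 counts in 1 of the libraries, as did 285 of the 390 miRNAs listed. None of the 6 passed a log2 fold change beyond 1 in size with a p under 0.01 by Fisher's exact test, while 10.2% of the 285 passed as higher in the SE library and 2.11% as lower. These calls were 29 higher and 6 lower with the clean reads, 20 and 7 with TMM and 16 and 11 unscaled, and no member was among them under any of these scalings. The CI lay above 0 for 2 members, miR-16-5p and miR-103-3p, and for 40.4% of the 285. It lay below 0 for 2 members, miR-497-5p and miR-107-3p, and for 22.8% of the 285. With counts in this number such intervals are common, and the members' counts were near this background. The median log2 fold change was 0.020 over the 6 members and 0.10 over the 285, of which the quartiles were -0.22 and 0.54. These ratios depend on the scaling. Of the miRNAs with an interval off 0, 63.9% were higher with the clean reads, 54.5% with DESeq2's size factors, 49.4% with the 5 most abundant miRNAs left out of the totals, 44.8% with edgeR's TMM and 36.1% unscaled. The shift of every log2 fold change under these 4 scalings was -0.09, -0.13, -0.18 and -0.27, in the same order.

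**Figure D2:**
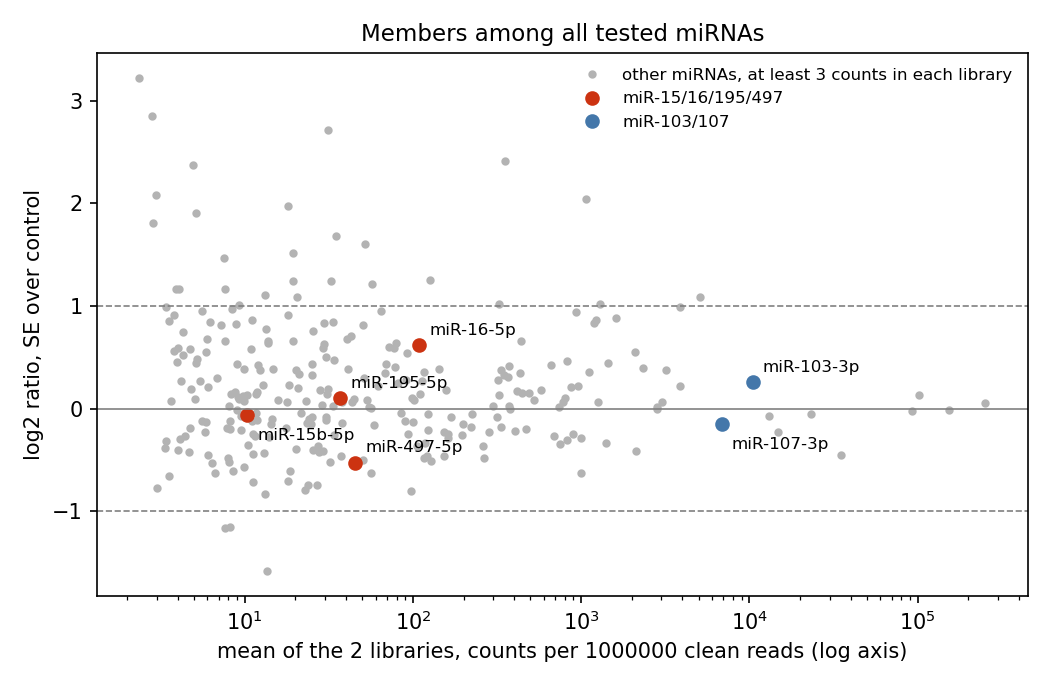
Log2 fold change of the SE library over the control library against the mean level of both (log axis), for the 274 other miRNAs with at least 30 counts in either library and at least 3 in each (grey) and the 6 members (coloured). A further 5 miRNAs with under 3 counts in a library are not drawn. All members lie between the dashed lines at -1 and 1.

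MiR-16-5p, the member best known for repressing Bcl2 and cyclins, was the member with the highest ratio. It was read 950 times in the SE library and 747 times in the control library, or 131.2 and 85.5 CPM. The level was 1.53-fold higher in the SE library, a log2 fold change of 0.62 (95% CI 0.48 to 0.76; p = 1.55e-18 by Fisher's exact test). Under all 6 other scalings the log2 fold change stayed positive, from 0.35 to 0.59, with intervals above 0.

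MiR-16 is also abundant in blood cells, so erythrocyte miRNAs were read beside it. For miR-451-5p, the best known of them, 196 reads were counted in the SE library and 100 in the control library, which gave a log2 fold change of 1.24 (CI 0.89 to 1.60). MiR-144-5p had 16 and 5 counts, which gave a log2 fold change of 1.95 (CI 0.43 to 3.75). MiR-144-3p had 12 and 14 counts, which gave 0.048 (CI -1.19 to 1.27). The 3 erythrocyte miRNAs listed summed to 30.9 CPM in the SE library and 13.6 CPM in the control library, against the 131.2 and 85.5 CPM of miR-16-5p, and miR-486 was not analysed here. The study perfused the rats with saline before the tissue was taken. The leukocyte list (miR-142 and miR-150, 3 miRNAs) summed to 44.1 and 40.0 CPM, with log2 fold changes from -0.48 to 1.91. The vessel list (miR-143 and miR-145, 4 miRNAs) summed to 193.9 and 169.6 CPM, with log2 fold changes from -0.31 to 0.88. In each of these 2 lists, 1 interval lay above 0 and 0 below. In the erythrocyte list, 2 of the 3 intervals lay above 0 and 0 below. Of the 285 miRNAs with at least 30 counts in either library, 40.4% had an interval above 0 and 22.8% below 0. In bulk tissue, a change in the number of cells and a change in RNA per cell cannot be told apart. The part of blood or other cells in the ratio of miR-16-5p was not tested.

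MiR-15b-5p, encoded beside miR-16 in Smc4, had 73 and 92 counts, or 10.1 CPM in the SE library and 10.5 CPM in the control library. Its log2 fold change was -0.06 (CI -0.53 to 0.40), and a change could not be detected at this depth. The neighbours nevertheless differed from each other. There were 0.0768 reads of miR-15b-5p per read of miR-16-5p in the SE library and 0.123 in the control library, a log2 difference of -0.68 (CI -1.17 to -0.20; adjusted p = 0.00656 by Fisher's exact test). Such a ratio of 2 miRNAs within a library does not depend on the scaling. In all, 7 pairs of members with a shared seed and the sums of the 2 families were compared in this way. With Benjamini-Hochberg adjustment over these 8 tests, 6 of the 8 had an adjusted p under 0.05. The share of other pairs of listed miRNAs that differ in this way was not computed. This count is therefore not shown to be particular to these families. A rat precursor of miR-16 besides Mir16 was not used here.

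MiR-195-5p and miR-497-5p, made from the pair of hairpins on chromosome 10, are known as repressors of cell cycle genes, and miR-497 has been studied in cerebral ischaemia as a repressor of Bcl2 and its relative Bcl-w. MiR-195-5p was read 275 times in the SE library and 309 times in the control library, or 38.0 and 35.4 CPM. Its log2 fold change of 0.10 (CI -0.14 to 0.34) showed no detectable change, and its sign turned with TMM (-0.077). MiR-497-5p had 269 and 467 counts, or 37.1 CPM in the SE library and 53.5 CPM in the control library. Its level in the SE library was 0.695 of that in the control library, which gave a log2 fold change of -0.52 (CI -0.75 to -0.31; p = 1.69e-06 by Fisher's exact test), and between -0.80 and -0.55 under the 6 other scalings. The SE library held 1.02 reads of miR-195-5p per read of miR-497-5p, against 0.662 in the control library. This log2 difference was 0.63 (CI 0.30 to 0.96; adjusted p = 0.000341 by Fisher's exact test). In both clusters the neighbours thus differed in their ratio between the libraries.

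Across clusters, miR-16-5p and miR-497-5p differed most within the miR-15 family. The SE library had 3.53 reads of miR-16-5p per read of miR-497-5p and the control library 1.60, a log2 difference of 1.14 (CI 0.88 to 1.41; adjusted p = 4.51e-18 by Fisher's exact test). MiR-16-5p and miR-195-5p, which differ at 2 bases, also had different ratios, with a log2 difference of 0.51 (CI 0.24 to 0.79; adjusted p = 0.000423 by Fisher's exact test). MiR-15b-5p was not told apart from miR-195-5p (log2 difference -0.17, CI -0.69 to 0.36) or from miR-497-5p (0.46, CI -0.055 to 0.97), and these intervals are wide because miR-15b-5p had under 100 counts in each library.

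The make-up of the miR-15 family differed between the libraries. MiR-16-5p supplied 60.6% of its reads in the SE library (95% CI 58.2 to 63.1) and 46.3% in the control library (43.8 to 48.7). The share of miR-497-5p was 17.2% in the SE library (15.3 to 19.1) and 28.9% in the control library (26.7 to 31.2). MiR-195-5p, at 17.5% and 19.1%, and miR-15b-5p, at 4.66% and 5.70%, had shares with overlapping intervals. The 4 together had 1567 and 1615 counts, or 216.4 CPM in the SE library and 184.8 CPM in the control library. The log2 fold change of this sum was 0.23 (CI 0.13 to 0.33), but 0.048 (CI -0.054 to 0.15) with TMM and -0.044 unscaled. The reads carrying the seed AGCAGCA among the members were therefore not shown to change in a given direction.

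**Figure D3:**
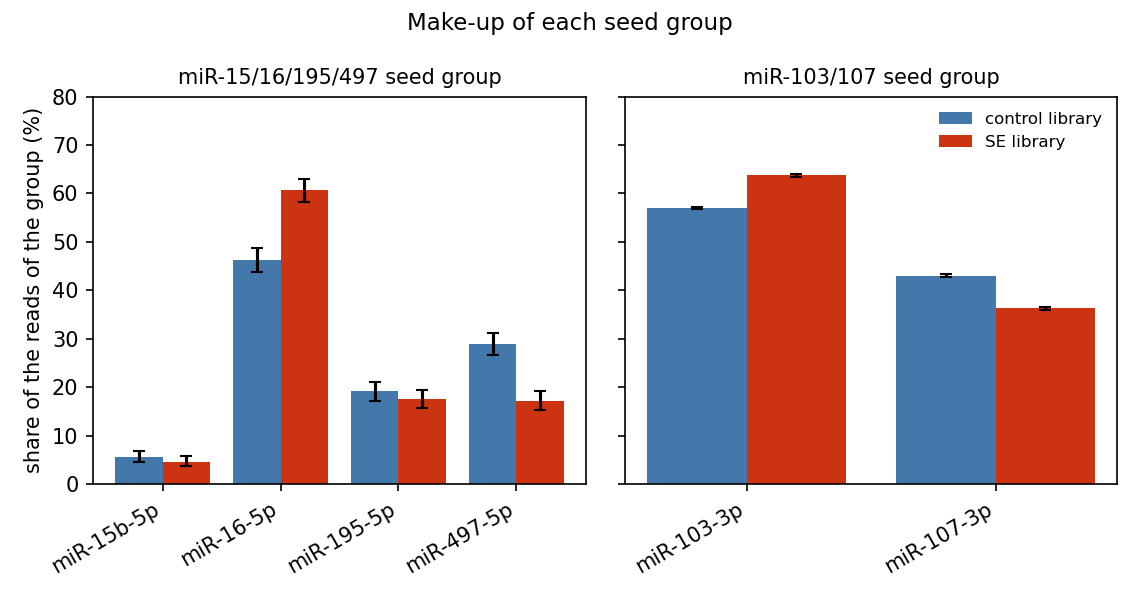
Share of the reads of each seed group, in percent, that belonged to each member, in the control library (blue) and the SE library (red), with 95% exact Clopper-Pearson intervals as error bars. The share of miR-16-5p was 60.6% against 46.3%, that of miR-497-5p 17.2% against 28.9% and that of miR-103-3p 63.7% against 56.9%.

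MiR-103-3p and miR-107-3p made up nearly all reads of the 6 members. MiR-103-3p was read 82352 times in the SE library and 83028 times in the control library, or 11372 and 9503 CPM. It was 1.20-fold higher in the SE library, which gave a log2 fold change of 0.26 (CI 0.25 to 0.27; p = 2.46e-294 by Fisher's exact test). MiR-107-3p had 46915 and 62769 counts, or 6479 CPM in the SE library and 7184 CPM in the control library. Its level in the SE library was 0.902 of that in the control library, which gave a log2 fold change of -0.15 (CI -0.17 to -0.13; p = 4.17e-65 by Fisher's exact test). With so many reads the counting error is very small, and such a p shows only that these 2 libraries differed. Both values are smaller in size than the shift of -0.27 of the unscaled counts. MiR-103-3p had a log2 fold change of -0.012 (CI -0.026 to 0.0021) unscaled and 0.079 with TMM, while miR-107-3p was lower under all 6 other scalings, from -0.42 to -0.18.

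The difference between these paralogues does not depend on the scaling. The SE library had 1.76 reads of miR-103-3p per read of miR-107-3p and the control library 1.32, a log2 difference of 0.41 (CI 0.39 to 0.43; adjusted p = 1.51e-285 by Fisher's exact test). MiR-103-3p thus took 63.7% of the reads of the pair in the SE library (95% CI 63.4 to 64.0) and 56.9% in the control library (56.7 to 57.2). As the pair differs at base 22 alone, this share also moves with the length of the reads and with the rule by which reads matching both were counted, whose part was not tested. The sum of the pair is the same if each shared read was given to only one of them, but not if such reads were counted for both or dropped. It was 129267 counts in the SE library and 145797 in the control library, or 17851 and 16687 CPM. Its log2 fold change was 0.097 (CI 0.086 to 0.11), against -0.082 with TMM and -0.17 unscaled. The pair made up 2.28% of all counts listed in the SE library and 2.18% in the control library.

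The 2 families as wholes were close to each other. There were 0.0121 reads of the miR-15 family per read of miR-103-3p and miR-107-3p in the SE library and 0.0111 in the control library, a log2 difference of 0.13 (CI 0.028 to 0.23; adjusted p = 0.0157 by Fisher's exact test). The largest difference within a family, 1.14 (CI 0.88 to 1.41), lay above this one, but it was picked as the highest of several pairs. The sums also join members that moved in opposite directions. These values therefore do not show that the families differ less than their members do.

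**Figure D4:**
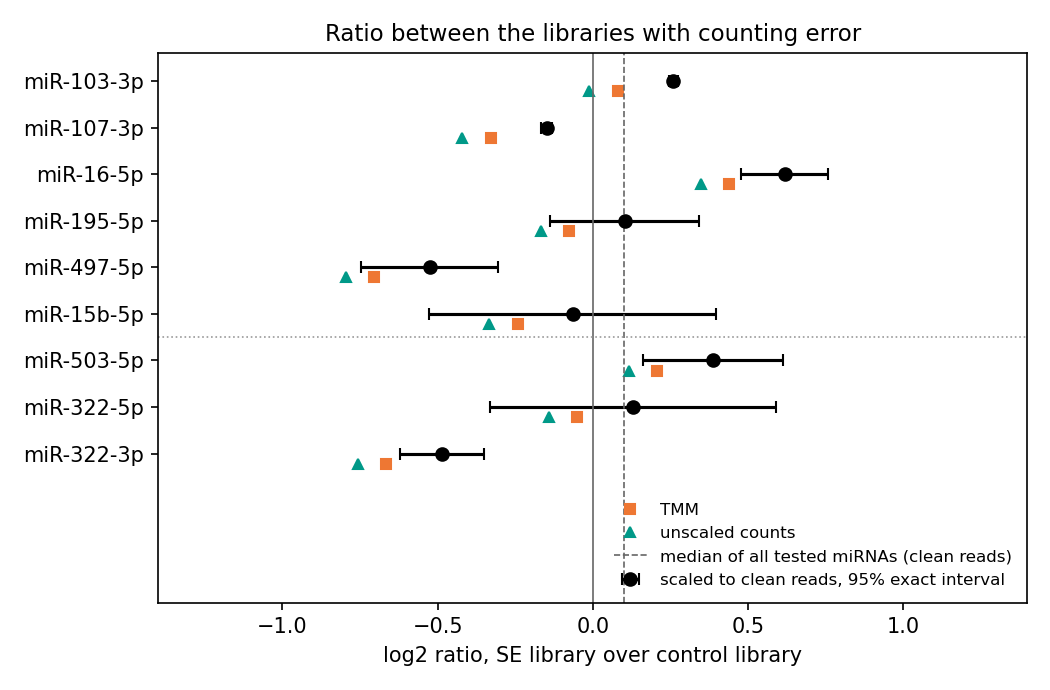
Log2 fold change of the SE library over the control library for each member (above the dotted line) and 3 related miRNAs (below it), with 95% exact intervals of counting error (black), and the same ratios with TMM (squares) or unscaled (triangles). The dashed line is the median of 0.10 over the 285 miRNAs tested, and the ratios of miR-103-3p, miR-195-5p and miR-322-5p turn sign in at least 1 of the 3 scalings, while the other 6 keep theirs.

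The wider group with related seeds also includes miR-503 and miR-322, the latter known as miR-424 in humans. Both are encoded on the X chromosome, 220 bases apart, and are known for arresting the cell cycle during differentiation. Their sequences are shown to place them beside the members.
miR-503-5p: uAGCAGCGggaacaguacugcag
miR-322-5p: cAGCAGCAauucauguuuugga
miR-322-3p: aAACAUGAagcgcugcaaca

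MiR-322-5p has the full seed of the miR-15 family, miR-503-5p differs from it at base 8, and miR-322-3p is the opposite arm with an unrelated seed. None of the 3 passed a log2 fold change beyond 1. MiR-503-5p was read 339 times in the SE library and 313 times in the control library, or 46.8 and 35.8 CPM, which gave a log2 fold change of 0.39 (CI 0.16 to 0.61; p = 0.000706 by Fisher's exact test). Its interval reached 0 with TMM (-0.020 to 0.43) and unscaled (-0.11 to 0.34). MiR-322-5p had 78 and 86 counts, or 10.8 and 9.84 CPM, which gave a log2 fold change of 0.13 (CI -0.33 to 0.59), and its sign turned with TMM (-0.050). Adding it to the miR-15 family left the ratio of the sum at 0.22. MiR-322-3p, with 704 and 1189 counts, or 97.2 and 136.1 CPM, had a log2 fold change of -0.49 (CI -0.62 to -0.35; p = 8.75e-13 by Fisher's exact test).

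In both libraries the 3p arm of miR-322 thus had more reads than the 5p arm that carries the seed. There were 0.111 reads of the 5p arm per read of the 3p arm in the SE library and 0.0723 in the control library, a log2 difference of 0.61 (CI 0.13 to 1.10; adjusted p = 0.0141 by Fisher's exact test over 3 tests). MiR-503-5p and miR-322-5p were not told apart (log2 difference 0.26, CI -0.26 to 0.77), whereas miR-503-5p and miR-322-3p were (0.87, CI 0.61 to 1.14; adjusted p = 1.46e-10 by Fisher's exact test).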

How the data were processed

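Small RNA from pooled hippocampal RNA was sequenced on an Illumina instrument, 1 library per group. The authors deposited a table of raw counts, whole numbers of reads assigned to each miRNA, and the study describes filters on read quality, length and single occurrence. Counts of 1 nevertheless occur in the table. The submitters' processing notes name the genome build rn5, and the aligner and miRBase release are not given in the sources used here. The 2 deposited columns of p-values hold the authors' own comparison and were not used.

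Counts were divided by the clean reads the study gives, and counts under 3 were set to 3 before a ratio. A miRNA was called with 30 counts or more in one or the other library, a log2 fold change beyond 1 in size and, in Fisher's exact test over all 390 miRNAs, an unadjusted p under 0.01. Ratios of 2 miRNAs were compared by Fisher's exact test of miRNA by library, with conditional exact intervals. Without replicates no dispersion could be estimated, and p-values measure counting error between these samples only. Every member, every listed miRNA with the shared hexamer and miR-322, miR-424 and miR-503 were named, of which miR-424 was not listed. The other lists are given as sums, with ranges or with single miRNAs named. The neuron list (miR-124, miR-128, miR-137) summed to 36703 CPM in the SE library and 43909 CPM in the control library. MiR-128-3p, which was lower in the SE library, supplied most of this sum. The log2 fold changes of this list ran from -0.45 to 1.09, with 3 intervals above 0 and 1 below. The oligodendrocyte list (miR-219, miR-338) summed to 1577 and 1604 CPM. Its log2 fold changes ran from -0.72 to 1.17, with 2 intervals above 0 and 2 below. Over all 285 miRNAs with at least 30 counts in either library, these shares were 40.4% above 0 and 22.8% below 0. MiR-9, miR-126 and miR-223 were not analysed here. The members, lists and tests were chosen with earlier results of these data known. The screen was run on simulated data with counting error alone and planted changes larger than that of any member. That run does not show how the screen performs on these pools. The alternatives were 6 other scalings, a pseudocount of 1, another minimum count (10, 100 or none), a threshold of 2 on the log2 scale, adjusted p-values (Benjamini-Hochberg), Wilson intervals, and the exact test of edgeR, for which a coefficient of variation of 0.2 was assumed. Precursor positions and sequences are from RefSeq on GRCr8, which is not the build of the deposited counts. Software used was edgeR 4.0.16 and DESeq2 1.42.0 under R 4.3.3, and scipy 1.17.1 under Python 3.11.15.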

Additional observations from a re-analysis of the deposited data

How the results depend on the processing

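No paired analysis was possible because the groups hold a single pool each, which also left no replicate to leave out. No member passed as higher or lower under any minimum count, threshold, scaling or test that was run. This includes the exact test of edgeR, for which a coefficient of variation of 0.2 was assumed. Every setting kept a threshold of at least 1 on the size of the log2 fold change. The member value largest in size under any scaling was -0.80, of miR-497-5p unscaled. The other minimum counts and tests therefore could not have called a member, whatever their p. The number of members with a CI above 0 was 2, and 1 unscaled. The median log2 fold change of the 6 members, 0.020 with the clean reads, was -0.0094 with the sums of known miRNAs as totals, -0.0115 with those of all miRNAs listed, -0.112 without the 5 most abundant miRNAs, -0.251 unscaled, -0.0704 with DESeq2's size factors and -0.16 with TMM. The sum of the miR-15 family was 0.095 without the 5 most abundant miRNAs, 0.0477 with TMM and -0.0435 unscaled, and that of miR-103-3p and miR-107-3p was -0.035, -0.0824 and -0.174 in the same order and 0.00697 with DESeq2's size factors. The sign also turned for miR-103-3p unscaled (-0.0118). It turned without the 5 most abundant miRNAs, unscaled and with TMM for miR-195-5p (-0.0296, -0.168, -0.077) and, in settings added after seeing the data, for miR-322-5p (-0.0023, -0.141, -0.0497). The scalings shift all log2 fold changes by the same amount, which is the cause of these turns. Of the 8 comparisons between members or families, 6 had a p under 0.05 both adjusted and, as added after seeing the data, unadjusted. Depth limited miR-15b-5p and miR-322-5p, each with under 100 counts per library.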
